A study of Mus musculus with 4 samples.

Results

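The antibody constant region genes and the J chain gene are described here in lung immune cells of the mouse. The 10 genes, Ighm, Ighd, Ighg3, Ighg1, Ighg2b, Ighg2c, Ighe, Igha, Igkc and Jchain, were chosen by symbol from the 31053 genes of the count tables, and each symbol matched 1 row. They encode 8 antibody heavy chains, the kappa light chain and the joining chain.

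The study asked what deleting Ift20 from T cells does to inflamed airways, and lungs of C57BL/6 mice with floxed Ift20 alleles were compared without a Cre driver (Ift20 f/f, here WT) and with CD4-cre (Ift20 f/f CD4 cre, here KO). Papain, a protease allergen, was given into the nose at 25 µg during 3 days, again on day 14, and cells were taken on day 15. DPBS, a saline buffer, was the control treatment. Neither the days of DPBS nor the number of mice per library is given in the labels, and the study's methods describe its mice of these genotypes as young males. WT and KO mice given DPBS (DPBS WT, DPBS KO) or papain (Papain WT, Papain KO) make 4 groups of 1 single-cell library each, made from live CD45.2+ cells with 3′ chemistry. CD4-cre is active in developing T cells, those of the CD8 lineage included, and is not a driver for B cells. With 1 library per group no difference has a replicate check and no test between groups was run. Brackets give exact 95% intervals, which cover counting error only.

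A B cell joins variable segments into 1 heavy and 1 light chain gene and first makes IgM and IgD together, by splicing the same variable exon to the constant exons of Ighm or Ighd. In class switch recombination the DNA is cut in front of Ighm and of a constant gene further along, and the cell then makes IgG, IgE or IgA with the same variable region. Plasma cells are the antibody-secreting end stage, with a large endoplasmic reticulum and very high immunoglobulin RNA. IgA and IgM made by plasma cells are joined into polymers by the J chain, which is bound through a tail at the end of the secreted mu and alpha chains, and such polymers can be carried across mucosal surfaces, those of the airways included.

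The 8 heavy chain constant genes lie in 167901 bp of chromosome 12 (GRCm38, GENCODE M21), from 113254830 to 113422730, on the minus strand. In the direction of transcription the order is Ighm, Ighd, Ighg3, Ighg1, Ighg2b, Ighg2c, Ighe and Igha. Ighm (ENSMUSG00000076617) and Ighd (ENSMUSG00000104213) are separated by 2233 bp, whereas 45371 bp lie between Ighd and Ighg3, the first of the switched genes. The switched genes are Ighg3 (ENSMUSG00000076615), Ighg1 (ENSMUSG00000076614), Ighg2b (ENSMUSG00000076613), Ighg2c (ENSMUSG00000076612), Ighe (ENSMUSG00000087642) and Igha (ENSMUSG00000095079), the last at chr12:113254830-113260236. Igkc (ENSMUSG00000076609) is a gene of 1 coding exon at chr6:70726435-70726966 on the plus strand, and Jchain (ENSMUSG00000067149) lies at chr5:88519809-88527891 on the minus strand.

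The ends of the coding sequences show what separates the chains that take up the J chain from those that do not. The last 60 coding bases before the stop codon of the secreted mu and alpha forms both encode a tail whose last residue but 1 is the cysteine that bonds to the J chain. Its codon is in capitals. The 2 secreted gamma forms below, those of the genes that led B-like or plasma-like cells of Papain WT and of no other library, end without such a codon. Sequences run 5′ to 3′ on the minus strand of chromosome 12, within the last exon of each coding sequence, from GRCm38.
Ighm secreted form, chr12:113420870-113420929: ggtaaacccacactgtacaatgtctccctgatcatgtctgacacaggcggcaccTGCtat
Igha secreted form, chr12:113258771-113258830: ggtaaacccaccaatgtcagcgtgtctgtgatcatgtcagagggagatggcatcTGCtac
Ighg1 secreted form, chr12:113328979-113329038: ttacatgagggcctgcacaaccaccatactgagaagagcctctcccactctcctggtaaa
Ighg2c secreted form, chr12:113287392-113287451: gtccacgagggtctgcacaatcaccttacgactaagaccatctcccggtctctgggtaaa

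The gamma genes resemble each other, which limits how surely reads are assigned to one of them. Coding sequences of Ighg2b and Ighg2c were 86.3% identical, and the other pairs of gamma genes 76.1% to 79.6%. The last 60 coding bases of the membrane forms of Ighg2b (chr12:113304317-113304376) and Ighg2c (chr12:113285328-113285387) are the same sequence.
Ighg2b and Ighg2c membrane forms: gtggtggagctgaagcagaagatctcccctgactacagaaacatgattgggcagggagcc
On coding sequence alone, values of Ighg2b and Ighg2c are therefore uncertain against each other, and sequences beyond the stop codon were not compared. Reads of a 3′ library come from the ends of transcripts, so the counts of a gene join its membrane and secreted forms.

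The libraries held 5863 to 8552 barcodes and 53854420 to 75675956 unique molecular identifiers (UMIs, 1 per counted transcript), of which 5433 to 7579 cells per library were kept. The 2 KO libraries were smaller and slightly deeper per cell, with medians of 6543 and 6681 UMIs against 5825 and 6191 in the WT libraries. Between 7 and 16 cell barcodes were shared by each pair of libraries. CPM, used below for levels, are counts per 1000000 UMIs summed over the cells described. They count molecules, not length, and compare libraries rather than genes. A run of 4 values goes through the DPBS pair and then the papain pair, WT before KO in each.

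Cells were grouped and named without any immunoglobulin or J chain gene among the genes used. The 10 genes still counted in the UMI totals used for scaling and in the doublet scores. B-like cells numbered 2215, 1446, 2076 and 1733, which was 29.2%, 26.6%, 27.8% and 31.9% of the cells kept. A UMI of Cd79a, a signalling chain of the B cell receptor, was found in 7469 of the 7470 B-like cells. Plasma-like cells numbered 5 and 3 in the DPBS pair and 24 and 11 in the papain pair. All 43 had UMIs of the plasma cell genes Mzb1, Sdc1, Xbp1 and Sec11c, and 37 had a UMI of Prdm1, which encodes the plasma cell regulator Blimp-1. These genes were on the list that named the class, and Xbp1 and Sec11c were also found in 39.9% and 61.2% of other cells. Of the same list, Derl3 was found in 42 of the 43 and in 0.669% of other cells. They were also the deepest class, with a median of 38680 UMIs per cell. Summed T cell markers reached 595, 11.9, 210 and 204 CPM in plasma-like cells, against 29.0 to 57.1 CPM in B-like cells, and all 6 markers had UMIs in 3 of the 4 libraries. Neutrophil markers reached 483 CPM in the Papain WT plasma-like cells, and monocyte markers 289 and 468 CPM in the papain pair. Of the monocyte markers, Ly6c2 was found in 31 of the 43 cells and Csf1r in 4. Ace, Fcgr4 and Cx3cr1 were found in 2 each, and Ccr2 and F13a1 in 0. Whether these UMIs came from the plasma-like cells themselves, from other cells or from free RNA in the droplets was not tested.

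**Figure D1:**
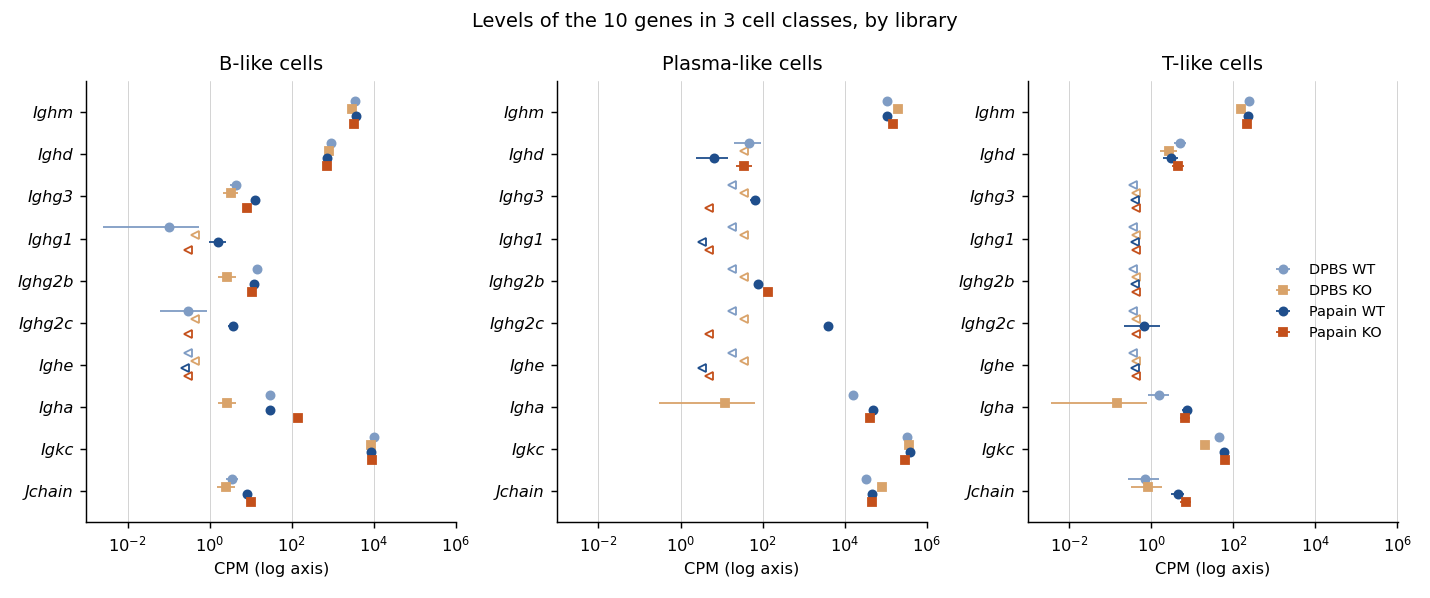
Levels of the 10 genes in B-like, plasma-like and T-like cells, as CPM on a log axis, with 1 point per library and bars for exact 95% Poisson intervals. Open triangles mark genes with 0 UMIs, at the level that 3 UMIs would have given. Ighe stands at 0 in every library, and Ighg2c is at 3966 CPM in Papain WT plasma-like cells with 0 UMIs in those of the other libraries.

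Ighm and Ighd, the unswitched heavy chains, were by far the most abundant heavy chain RNAs of B-like cells in every library. Ighm stood at 3409 CPM (3373 to 3446) with WT and 2974 (2933 to 3016) with KO under DPBS, and at 3607 (3573 to 3641) and 3293 (3258 to 3329) under papain. The KO libraries were thus lower than the WT library of the same treatment by 0.20 on the log2 scale in DPBS (0.17 to 0.22) and by 0.13 in papain (0.11 to 0.15). Ighd stood at 922 CPM (903 to 941), 808 (786 to 830), 709 (694 to 724) and 724 (707 to 741) in the same order. Summed over B-like cells, each genotype had less Ighd after papain, the log2 ratio to DPBS being -0.38 (-0.42 to -0.34) in WT and -0.16 (-0.21 to -0.11) in KO. The clusters of B-like cells, described below, differed in size between libraries. From DPBS to papain in WT, Ighd went from 785 to 838 CPM in cluster 0, 1164 to 1136 in cluster 1 and 238 to 144 in cluster 14. In KO it went from 822 to 787, 972 to 924 and 337 to 216 CPM. The part of cluster sizes in the summed ratios was not tested. Ighm and Ighd UMIs were found together in 93.5%, 92.2%, 88.2% and 92.1% of B-like cells. Ighm had the most heavy chain UMIs in 2097, 1370, 1969 and 1662 B-like cells, and Ighd in 105, 66, 75 and 57, so that cells led by one of these 2 genes made up nearly all of the class.

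Igkc, the constant region of the kappa light chain, was highest in DPBS WT. The 4 levels were 10279, 8647, 8685 and 8878 CPM. The other 3 libraries differed by 0.04 or less on the log2 scale in the 2 comparisons among them, and DPBS WT was 0.24 to 0.25 above its neighbours in the design. Lambda light chains, the alternative to kappa, had more UMIs than Igkc in 5.69%, 5.88%, 6.74% and 6.23% of B-like cells, shares whose intervals overlapped. The lambda constant genes Iglc2 and Iglc3 were also highest in DPBS WT, Iglc2 at 1510 CPM against 1006 to 1142 CPM in the other libraries, and their KO to WT log2 ratios in DPBS were -0.59 (-0.63 to -0.54) and -0.62 (-0.68 to -0.56). These sums join clusters of unlike size, described below. In DPBS WT and DPBS KO, Iglc2 stood at 1040 and 763 CPM in cluster 0, 1714 and 1524 in cluster 1 and 1901 and 1239 in cluster 14. For Iglc3 the pairs were 448 and 332, 967 and 808, and 691 and 710 CPM.

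The B-like cells formed 3 clusters, and the unswitched isotypes separated 1 of them. Cluster 14 (627 cells), led by Ly6a, Ms4a1, Mzb1, Dnase1l3 and Ly6d, had Ighm at 5334, 4834, 4684 and 4927 CPM. In clusters 0 and 1 Ighm lay between 2560 and 3368 CPM. Ighd made up 4.27% of Ighm and Ighd UMIs in cluster 14 of DPBS WT, and 6.51%, 2.98% and 4.21% in the libraries that follow. In the other 2 clusters that share was 21.7% to 25.9%. Cells with much IgM and little IgD RNA therefore stood apart in all 4 libraries, although neither gene was among those chosen to form the clusters. Cluster 14 cells were also deeper, with library medians of 8272 to 12932 UMIs against 3773.5 to 4703 in clusters 0 and 1. Clusters 0 and 1 were unevenly filled: cluster 0 held 35.1% of B-like cells in DPBS WT and 67.4% in DPBS KO.

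**Figure D2:**
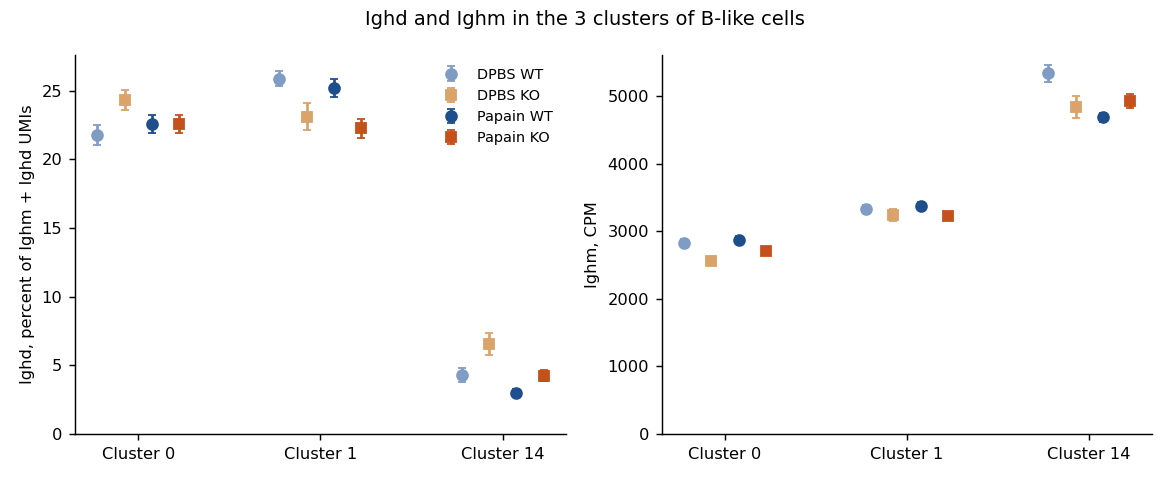
Ighd as a percent of Ighm and Ighd UMIs (left) and Ighm in CPM (right) in the 3 clusters of B-like cells, with 1 point per library and bars for exact 95% intervals. The 4 libraries lie between 2.98% and 6.51% in cluster 14 and at 21.7% or more in clusters 0 and 1.

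After papain this IgM-high, IgD-low cluster was a larger part of the B-like cells. Under DPBS it held 5.06% of them in WT (4.18 to 6.05) and 5.6% in KO (4.47 to 6.91), and under papain 13.9% (12.5 to 15.5) and 8.37% (7.11 to 9.77). The log2 ratio of papain to DPBS was 1.46 (1.14 to 1.79) in WT and 0.58 (0.18 to 0.99) in KO. KO stood at 0.15 (-0.28 to 0.57) against WT in DPBS and at -0.73 (-1.03 to -0.44) in papain. Genes that form a cluster differ by construction: of 10432 genes 5.33% were more than 2-fold higher in cluster 14 than in other B-like cells and 7.1% lower, with all 6 B-1 and innate-like genes higher and 5 of 7 naive follicular genes lower. Papain WT was also highest among the 4 libraries when the clusters were built without integration, at 14.3% against 3.58% to 8.85%.

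Switched heavy chains were rare in B-like cells. Ighg3, which encodes IgG3, had 43, 22, 149 and 83 UMIs, or 4.30 CPM (3.12 to 5.80), 3.29 (2.06 to 4.98), 12.4 (10.5 to 14.6) and 8.24 (6.56 to 10.2). Both papain libraries lay above both DPBS libraries, and the log2 ratio was 1.53 (1.03 to 2.05) for WT and 1.32 (0.63 to 2.07) for KO. Single cells weighed on this: 1 cell held 43 of the 83 UMIs in Papain KO and 1 held 11 of the 22 in DPBS KO.

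The remaining IgG genes differed between libraries by whole cells. Ighg1, the IgG1 gene whose switching is classically driven by interleukin 4, had 1, 0, 19 and 0 UMIs, and all 19 of Papain WT lay in 2 cells. Ighg2c, the IgG2c gene of C57BL/6 mice, had 3, 0, 45 and 0 UMIs. For these genes Papain WT was at least 5.32-fold and 12.6-fold above Papain KO, when the 0 of Papain KO is taken as 3 UMIs in the library. These limits treat UMIs as independent, and by cells no minimum fold holds. Ighg1 led 2 and Ighg2c led 3 B-like cells of Papain WT, or 0.0963% and 0.145%. The 0 cells of Papain KO allow up to 0.173%. Ighg2b, the IgG2b gene, had 145, 18, 146 and 110 UMIs. The low library here was DPBS KO, at 2.69 CPM (1.60 to 4.25) against 14.5 (12.2 to 17.1) in its WT partner and 12.2 (10.3 to 14.3) and 10.9 (8.98 to 13.2) in the papain pair. A single cell held 14 of the 18 UMIs of DPBS KO, and without the top cell of each library the log2 ratio of KO to WT under DPBS went from -2.43 to -4.08. Ighg3, Ighg1 and Ighg2b had 0 UMIs in the T-like cells of all 4 libraries, where a count of 0 allows 0.360 to 0.424 CPM.

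Igha, the IgA gene, showed the same low library. Its 290, 18, 345 and 1393 UMIs in B-like cells gave 29.0 CPM (25.8 to 32.6), 2.69 (1.60 to 4.25), 28.8 (25.8 to 32.0) and 138 (131 to 146). Of the Papain KO UMIs, 1162 lay in 1 cell, without which the level was 23.0 CPM. In DPBS WT 1 cell held 114 of the 290 UMIs, and the level without it was 17.6 CPM. Most B-like cells with Igha UMIs had few of them: 7.03% and 6.23% of B-like cells in the papain pair had at least 1, at median depths of 4395 and 4785 UMIs, while 4.5% and 4.48% of T-like cells did so, at 5955 and 6594 UMIs. After each cell was thinned to 1000 UMIs, which left out 0 to 3 shallower cells per library and class, these shares were 1.5% and 1.04% in B-like and 1.17% and 0.467% in T-like cells.

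Ighe, the IgE gene, had 0 UMIs in every deposited barcode of all 4 libraries. In B-like cells this allows at most 0.30, 0.449, 0.25 and 0.298 CPM. IgE RNA was therefore not detectable at this depth, before or after an allergen that is used to raise type 2 responses.

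To count switched cells rather than molecules, a B-like cell was called switched when it had at least 3 UMIs of Ighg1, Ighg2b, Ighg2c, Ighg3, Ighe and Igha together and these were over 50% of its heavy chain UMIs. There were 7 such cells in WT and 2 in KO with DPBS, and 21 and 10 with papain. Their shares of B-like cells were 0.316% (0.127 to 0.650), 0.138% (0.0168 to 0.499), 1.01% (0.627 to 1.54) and 0.577% (0.277 to 1.06). The log2 ratio of papain to DPBS was 1.68 (0.39 to 3.16) in WT and 2.06 (-0.17 to 5.29) in KO. KO against WT gave -1.19 (-4.49 to 1.20) under DPBS and -0.81 (-2.06 to 0.34) under papain, so a difference between genotypes was not detectable at these cell numbers. Thinned to 1000 UMIs per cell, and called from 1 switched UMI, the cells numbered 9, 2, 19 and 10, and the ratio of papain to DPBS in WT was 1.17 (-0.04 to 2.50).

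**Figure D3:**
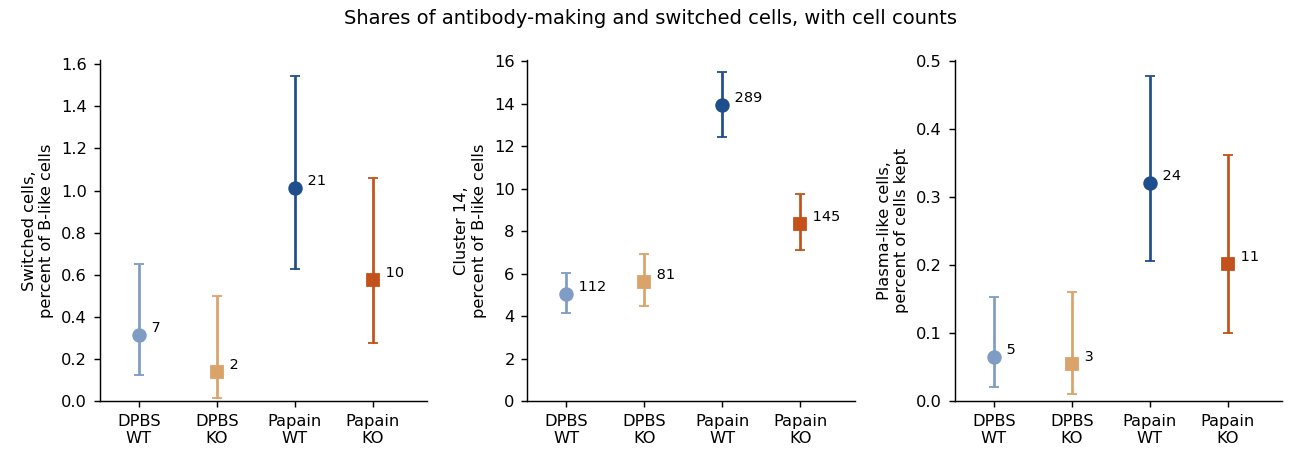
Switched cells as a percent of B-like cells (left), cluster 14 as a percent of B-like cells (middle) and plasma-like cells as a percent of cells kept (right), with 1 point per library, the number of cells beside it and exact 95% binomial intervals. Each papain library lies above the DPBS library of its genotype in all 3 panels, and the intervals overlap for both genotypes in the left panel and for the KO pair in the right panel.

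Among the 40 switched cells, Igha led in 15, Ighg2b in 14, Ighg3 in 6, Ighg2c in 3, Ighg1 in 2 and Ighe in 0. The IgA-led cells came from DPBS WT (3), Papain WT (8) and Papain KO (4), and the IgG2b-led cells from all 4 libraries (4, 1, 5 and 4). Ighg1 and Ighg2c led cells of Papain WT alone, 5 in all, where a count of 0 in the other libraries allows 0.135% to 0.207% of B-like cells. No Ighg2b-led cell held an Ighg2c UMI, and no Ighg2c-led cell held an Ighg2b UMI. In 24 of the 40 cells no Ighm or Ighd UMI was left. The 2 Ighg1-led cells held 11 and 8 Ighg1 UMIs and each also held 4 Ighg2c UMIs, which the similarity of the gamma genes makes uncertain.

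The switched cells sat mostly in the IgM-high, IgD-low cluster. Of the 40, 26 were in cluster 14, where they were 4.15% (2.73 to 6.02) of cells, against 0.165% (0.0604 to 0.358) of cluster 0 and 0.25% (0.108 to 0.492) of cluster 1. By library the share within cluster 14 was 4.46% (1.47 to 10.1), 1.23% (0.0313 to 6.69), 4.84% (2.67 to 7.99) and 4.14% (1.53 to 8.79). In WT it was thus much alike under DPBS and papain. Switched cells were deeper than other B-like cells, which bears on a call that needs 3 UMIs; its part in these shares was not tested beyond the thinned counts above.

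The switched cells also differed from other B-like cells in genes that had no part in choosing them. Values here are log2 ratios of summed CPM over the 4 libraries, for genes with at least 50 UMIs; of 10432 genes, 7.59% were more than 2-fold higher in switched cells and 7.96% more than 2-fold lower, around a median of -0.05. A gene with 0 UMIs on one side was set to 3 UMIs for this count. Of 7 memory B cell genes, 4 were more than 2-fold higher and 0 lower (median 1.02). These included Nt5e, the ectonucleotidase CD73, at 4.07 (3.52 to 4.59) and the adhesion receptor gene Cd44 at 1.84 (1.55 to 2.12), both higher in all 4 libraries, and the costimulatory ligand gene Cd80 at 2.05 (1.17 to 2.82), higher in 3. Of 6 genes of B-1 and innate-like B cells, 5 were higher and 1 lower (median 2.1), among them the transcription factor genes Zbtb32 at 2.53 (2.04 to 2.98) and Bhlhe41 at 2.50 (2.14 to 2.84). Of 7 naive follicular genes, 0 were higher and 4 lower (median -1.1), with Fcer2a, the low-affinity IgE receptor CD23, at -1.30 (-1.68 to -0.95).

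Receptor complex and germinal centre genes gave a mixed picture in the same cells. None of 7 B cell receptor complex genes passed 2-fold (median -0.15). Of 6 measured genes of class switching and the germinal centre, 2 were higher and 2 lower, so the list had no single direction. The 2 higher were the death receptor gene Fas at 4.27 (3.56 to 4.93) and the transcription factor gene Batf at 1.28 (0.67 to 1.82). The 2 lower are not named here. Of 5 measured homing genes of IgA cells, 3 were higher and 0 lower, with the integrin gene Itga4 at 1.48 (1.25 to 1.70). Of 12 measured secretory genes, 3 were higher and 2 lower. Prdm1 stood at 2.21 (1.49 to 2.86), and the endoplasmic reticulum protein gene Derl3 at 3.87 (2.81 to 4.80) on 11 UMIs, each higher in 2 of the 4 libraries. The 2 lower genes, named after their values were seen, were Sdc1 at -3.06 (-8.37 to -0.58) and Fkbp11 at -2.08 (-7.38 to 0.41), each on 1 UMI in the switched cells. Papain WT gave 21 of the 40 cells in these sums, and 26 of the 40 cells belong to a cluster that itself differs from the rest in these genes.

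Plasma-like cells made up 0.0660% (0.0214 to 0.154), 0.0552% (0.0114 to 0.161), 0.321% (0.206 to 0.478) and 0.202% (0.101 to 0.362) of the cells of each library. The papain libraries were higher in both genotypes, by 2.28 (0.87 to 4.03) for WT and 1.87 (-0.05 to 4.35) for KO on the log2 scale. The numbers depend on how the class is drawn: a gate on transcripts in each cell gave 18, 5, 49 and 25 cells. KO stood at -0.26 (-2.94 to 2.11) against WT in DPBS and at -0.67 (-1.85 to 0.42) in papain, differences that were not detectable with so few cells. A further 7 cells outside the class were member-rich, drawing at least 10% of their UMIs from the 10 genes, 3 in DPBS WT, 2 in Papain WT and 2 in Papain KO. Of these, 5 lay in a cluster of dividing cells led by Pclaf, Ube2c and Birc5. With them the numbers were 8, 3, 26 and 13.

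In the 43 plasma-like cells 12.9% to 83.1% of all UMIs came from the 10 genes, with a median of 58.6%. IgM was the leading isotype: Ighm led in 32 cells (4, 3, 17 and 8), and Igha led in 9 (1, 0, 5 and 3). Ighg2c led in 2 cells of Papain WT, with 1377 and 2221 UMIs, and each of them had 0 UMIs of Ighg2b. Ighg3, Ighg1, Ighg2b, Ighe and Ighd led in 0. Each cell was given over to 1 isotype, since the leading gene held 98.7% to 100% of the heavy chain UMIs of a cell. Ighd was low, with 8, 0, 6 and 22 UMIs in the class, although Ighm led most cells.

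Summed over the class, Ighm stood at 107488, 204334, 111182 and 147912 CPM. Igha stood at 16344, 11.9, 49732 and 41086 CPM. These sums are set by few cells: the Igha level of DPBS WT was 1 cell with 2800 UMIs, and that of DPBS KO was 1 UMI. They also leave out cells outside the class. Unnamed clusters held 65.4% of the Igha UMIs of DPBS WT, against 30.0% in plasma-like cells. Of the 7 member-rich cells described above, those led by Igha held 1555 and 4515 Igha UMIs in DPBS WT and 2738 in Papain KO. The remaining ones were led by Ighm. Within the papain libraries the Igha-led plasma-like cells spread from 2682 to 17156 Igha UMIs in Papain WT and from 4610 to 15921 in Papain KO, ranges that overlap. Ighm in the Ighm-led cells ran from 92 to 12964 UMIs in Papain WT and from 4203 to 17235 in Papain KO, which also overlap.

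**Figure D4:**
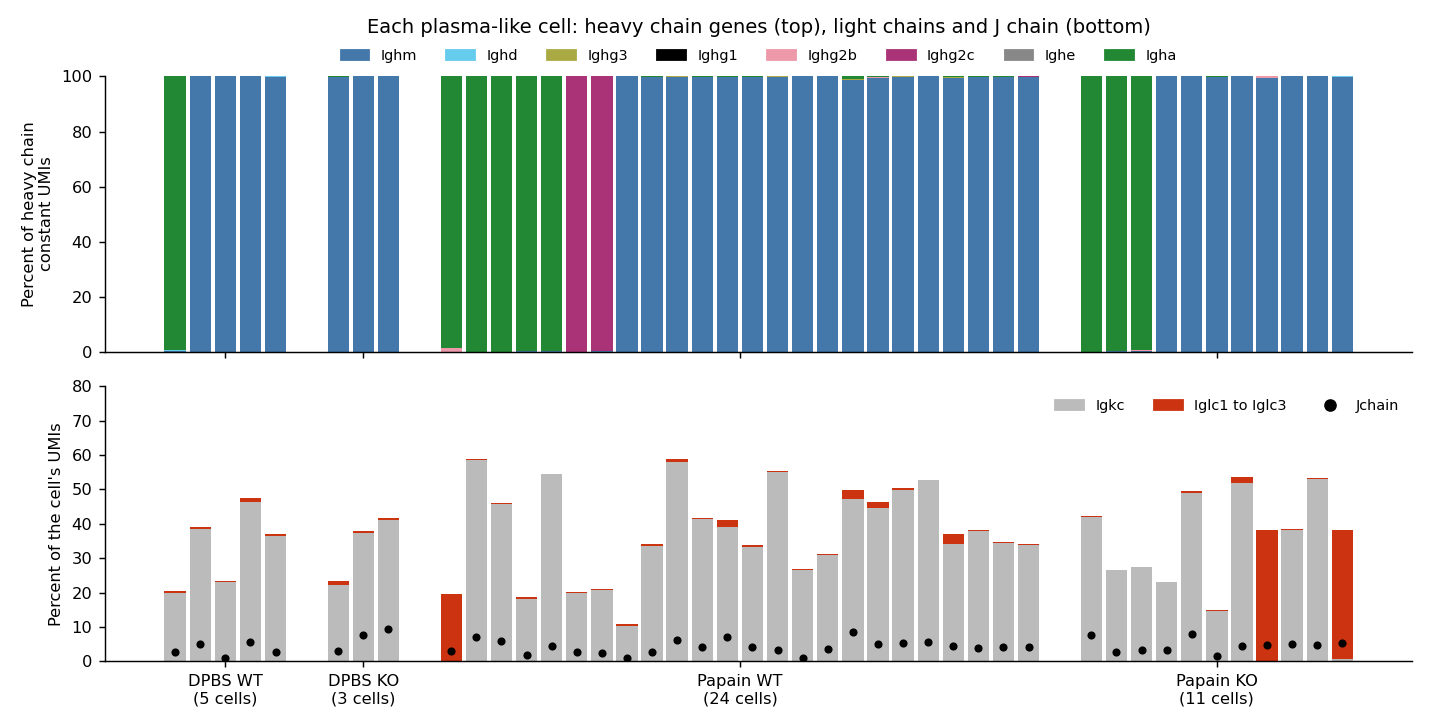
Each bar is 1 of the 43 plasma-like cells, grouped by library. The top panel gives the 8 heavy chain genes as a percent of the cell's heavy chain UMIs; the bottom panel gives Igkc, the sum of Iglc1 to Iglc3 and Jchain as a percent of all its UMIs. Each cell shows a single heavy chain, and lambda exceeds kappa in 3 cells.

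The J chain gene was on in every plasma-like cell, and these few cells held most of its UMIs in each library. It gave 0.923% to 9.48% of a cell's UMIs, with a median of 4.28%. By isotype the median was 4.53% in Ighm-led cells and 3.20% in Igha-led cells, and the 2 Ighg2c-led cells, whose heavy chain lacks the tail shown above, held 2.62% and 2.43%. The values of the 3 kinds of cell overlap, and the kinds were not compared within libraries. Plasma-like cells held 76.7%, 99.0%, 91.7% and 93.9% of all Jchain UMIs, and B-like cells 0.211% to 0.481%. The lower share of DPBS WT went with 3 dividing cells outside the class that held 336, 820 and 450 Jchain UMIs.

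Light chains were exclusive in the same way. The leading light chain gene among Igkc, Iglc1, Iglc2 and Iglc3 held 73.7% to 99.96% of a cell's light chain UMIs, with a median of 98.9%, and the lowest value was that of a cell with several lambda genes. Lambda exceeded kappa in 3 cells. The Papain WT cell, led by Igha, had 7488 lambda UMIs and 2 of Igkc. The 2 cells of Papain KO, led by Ighm, had 17301 UMIs of Iglc2 and 27754 of Iglc1, with 2 and 441 of Igkc. The Iglc1 level of Papain KO plasma-like cells, 45709 CPM, thus rested on 1 cell. Heavy chain variable segments gave 10 or more UMIs in 3 plasma-like cells, all of Papain KO, and Ighv11-2 led in 2 of them. Light chain variable segments gave as many in 39 cells and were led by 17 segments. Iglv1 led in 11 of these cells, 6 of them in Papain KO, although lambda exceeded kappa in only 3 cells, so the leading segment did not always match the leading light chain.

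Against B-like cells, genes of the secretory machinery were higher in plasma-like cells and receptor genes lower. The classes had been named on 8 of the 13 secretory genes, so their direction there is no result. Of the 10493 genes with at least 50 UMIs, 4.01% were more than 2-fold higher in plasma-like cells and 64.5% more than 2-fold lower, around a median of -1.46, in cells where the 10 genes took a median of 58.6% of the UMIs. Of 13 secretory genes 11 were higher (median 2.82), among those not used for naming the chaperone gene Hsp90b1 at 2.91 and the disulfide isomerase gene Pdia4 at 2.82. All 7 B cell receptor complex genes were lower (median -2.84), and all 7 naive follicular genes were too (median -4.11). Of 6 IgA homing genes 3 were higher, and the direction of the remaining ones is not given here. Among the higher were Ccr10, a receptor that draws IgA plasma cells to mucosa, and Ccr9, a gut homing receptor. Ccr10 stood at 7.68 (6.56 to 9.05) and was higher in 3 of 4 libraries. Ccr9 stood at 2.35 (1.61 to 3.03) and was higher in 2, with a UMI in 5 of the 43 plasma-like cells.

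The members were next set against all genes in B-like cells, for the 7 members with at least 50 UMIs over the 2 libraries compared. In WT, 2 of 7 (Ighg3 and Jchain, both higher) passed 2-fold between papain and DPBS, against 1.87% of 9699 genes. In KO, 4 of 7 (Ighg3, Ighg2b, Igha and Jchain, all higher) did so, against 0.775% of 9289. Between KO and WT, 2 of 7 (Ighg2b and Igha, both lower) passed in DPBS, against 0.604% of 9271, and 1 of 7 (Igha, higher) in papain, against 0.986% of 9735. The Igha value in papain rested on the 1 cell with 1162 UMIs and was -0.014 without the top cell of each library. Jchain in B-like cells had only 35, 17, 96 and 104 UMIs, or 3.5, 2.54, 8.01 and 10.3 CPM. In T-like cells it stood at 0.720, 0.849, 4.35 and 6.86 CPM, lower than in B-like cells in every library and also higher after papain, and the part of free RNA in the B-like values was not tested. Ighm, Ighd and Igkc differed by 0.38 or less on the log2 scale in all 4 comparisons.

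Outside the B lineage, Igkc was measured in T-like cells, since T cells do not rearrange the kappa gene; free RNA and doublets that were not removed cannot be told apart there. It stood at 44.1 CPM (39.8 to 48.9), 20.4 (17.2 to 23.99), 59.2 (53.7 to 65.0) and 63.1 (57.5 to 69.2). One DPBS WT cell held 75 of its 368 UMIs, and without it the level was 35.2 CPM. The level was higher after papain, by 0.42 (0.22 to 0.63) for WT and 1.63 (1.36 to 1.91) for KO on the log2 scale, and lower in KO than in WT in DPBS, at -1.12 (-1.40 to -0.83), with 0.09 (-0.10 to 0.29) in papain. Without the removal of doublets the levels of the papain pair were 118 and 136 CPM, and the ratios of papain to DPBS were 1.63 in WT and 2.71 in KO. A UMI of Igkc was found in 17.9%, 11.3%, 29.1% and 35.4% of T-like cells, and in 3.54%, 2.06%, 5.26% and 6.82% after thinning. Igkc in alveolar macrophage-like cells was also higher in both papain libraries, at 44.9, 22.6, 80.4 and 80.6 CPM. In C1q macrophage-like cells it went the other way once the cell with the most Igkc UMIs was left out of each library, at 371, 377, 197 and 213 CPM. With that cell Papain WT stood at 2953 CPM, since it held 16287 of the 17444 UMIs.

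Igha in T-like cells stood at 1.56, 0.141, 7.48 and 6.72 CPM, the lowest being DPBS KO. Ighg2c had 5 UMIs in the T-like cells of Papain WT and 0 in those of the other libraries.

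Ighm did not keep step with Igkc. In B-like cells there were 0.33, 0.34, 0.42 and 0.37 Ighm UMIs per Igkc UMI. The ratio in alveolar macrophage-like cells was higher in each library, at 0.48 (0.438 to 0.535), 0.58 (0.505 to 0.675), 0.54 (0.485 to 0.595) and 0.63 (0.567 to 0.709), with intervals that did not overlap those of B-like cells. In T-like cells it was 5.37 (4.80 to 6.02), 7.63 (6.41 to 9.14), 3.93 (3.53 to 4.37) and 3.44 (3.1 to 3.82). Ighm stood at 237, 155, 232 and 217 CPM in T-like cells, in 64.2%, 55.4%, 69.0% and 68.8% of them before and 20.9%, 16.8%, 22.6% and 20.2% after thinning. In all 4 libraries T-like cells thus had more Ighm per Igkc than both B-like and alveolar macrophage-like cells, with intervals that did not overlap. Monocyte-like, natural killer (NK)-like and type 2 innate lymphoid (ILC2)-like cells also lay on the Ighm side. Reads that end in Ighm do not show whether the transcript carries a rearranged variable segment, and what these UMIs are was not tested.

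**Figure D5:**
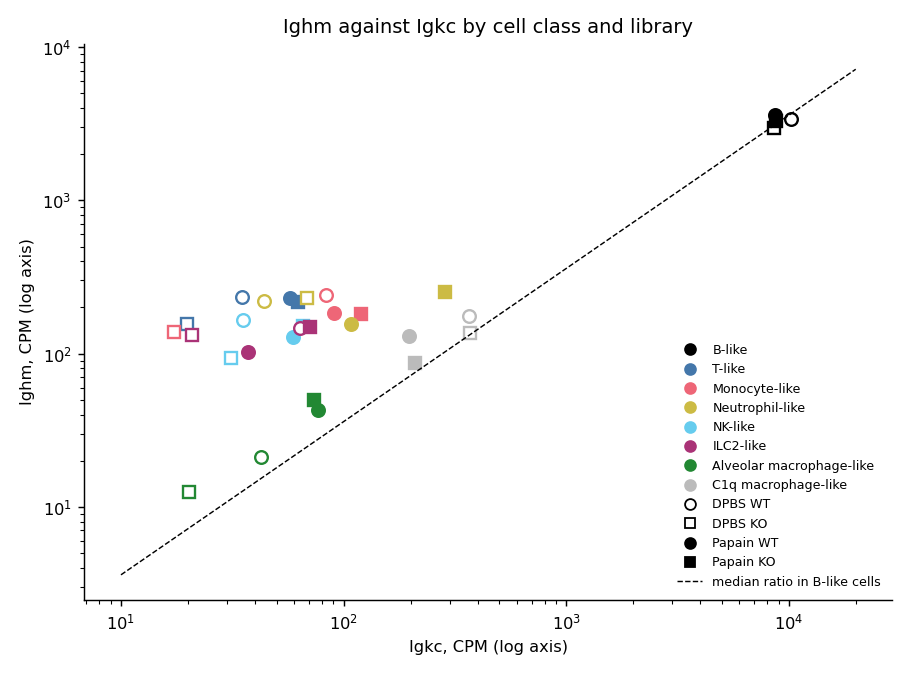
Ighm against Igkc, both in CPM on log axes, for 8 cell classes in each library, with the cell of the most Igkc UMIs left out of each class. Symbols give the library, colours the class, and the dashed line the median ratio of the B-like cells. Alveolar and C1q macrophage-like cells lie nearer the line than T-like, NK-like and monocyte-like cells, which lie above it.

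Conventional dendritic-like cells, few in number and all from cluster 23, stood apart for Igha. The genes leading cluster 23 included Itgae, Clec9a and Xcr1. Cluster 17 (288 cells), led by Cd209a and Mgl2, also scored highest for conventional dendritic cells but was left unnamed. It was not examined on its own for Igha, so the values hold for cluster 23 only. In cluster 23 Igha was at 115, 92.0, 34.8 and 35.6 CPM on 48, 51, 29 and 26 UMIs in 23, 31, 46 and 33 cells. In the DPBS libraries this went with Igkc at 19.1 and 19.8 CPM, below Igha. In DPBS KO the 51 Igha UMIs of these cells were more than the 18 of all B-like cells. The cell with the most Igha UMIs held 10 and 18 of them in DPBS WT and DPBS KO.

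The genes most alike in pattern were sought over 41 pairs of class and library, by Pearson correlation of log2(CPM + 10) with immunoglobulin genes left out, as a description. The points of a library share its cells and free RNA. For Ighm they were Mzb1 (0.94), Sdc1 (0.93) and Eaf2 (0.93), and for Ighd they included Bank1 (0.97) and Siglecg (0.96). For Jchain they were Derl3 (0.96), Tnfrsf17 (0.96) and Oosp1 (0.94), and for Igha Ccr10 (0.94), Fkbp11 (0.90) and Myzap (0.88). The unswitched Ighd thus went with genes of B cells and Ighm, Igha and Jchain with genes of plasma cells. For Ighg1, with 20 UMIs in all, the names were Lmo7 (0.93), Gm15228 (0.72) and Ppl (0.69).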

How the data were processed

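Live CD45.2+ lung cells of 4 groups were profiled with 10x 3′ chemistry, 1 library per group. The deposited values are UMI counts per gene and barcode; the authors made them with Cell Ranger on mm10 (software version 3.1.0 in the matrix header), and how cells were called is not given in the sources used here. Libraries held 53854420 to 75675956 UMIs.

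Barcodes with over 200 genes and under 15% mitochondrial UMIs were kept. The top Scrublet scores (scanpy 1.11.5) were removed at 0.8% per 1000 barcodes, since the caller's own threshold marked 0% in Papain KO. Cells were integrated and clustered in Seurat 5.3.0 (2000 variable genes without immunoglobulin genes and Jchain, 30 dimensions, Louvain resolution 0.8) and named from marker lists. Ratios have conditional binomial intervals, levels Poisson and shares Clopper-Pearson intervals (scipy 1.17.1, pandas 2.3.3, numpy 2.4.6, Python 3.11.15). UMIs remove most amplification copies, and intervals cover counting error only. With 1 library per group no test was run.

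The members and lists were chosen with earlier results of these data known. Named genes are the 10 members, genes of the fixed lists with at least 10 UMIs in the cells described, and the 3 genes most alike in pattern to Ighm, Ighd, Igha, Ighg1 and Jchain. Genes compared had at least 50 UMIs, and the comparison was tested on simulated data. Alternatives covered doublets, the mitochondrial limit, integration, a transcript gate, the cells with most UMIs, the UMI minimum and the scaling (edgeR 4.0.16 TMM factors, R 4.3.3). Gene positions and sequences came from GENCODE M21 on GRCm38. Protein sequences were not used here, and some genes that the naming rule covers are not reported here.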

Additional observations from a re-analysis of the deposited data

Results flagged for a closer look

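The sign of the KO to WT ratio of Igha in B-like cells differed between treatments, with a log2 ratio of -3.43 in DPBS and 2.27 in papain; the difference was not tested, since each value compares 2 libraries, and the papain value rested on 1 cell. Igkc in B-like cells had a log2 ratio of papain to DPBS of -0.24 in WT and 0.04 in KO. Its KO to WT ratio was -0.25 under DPBS and 0.03 under papain, and these differences were not tested. The B-like share of cells kept had a KO to WT log2 ratio of -0.13 in DPBS and 0.20 in papain, which was not tested either. Among the barcodes removed before the comparisons, those that drew at least 10% of their UMIs from the 10 genes numbered 2 in WT and 0 in KO under DPBS, and 2 and 1 under papain. Igha led 1 of them in DPBS WT, 1 in Papain WT and 1 in Papain KO.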

How the results depend on the processing

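No paired analysis was possible because each group is 1 library; for the same reason no replicate could be left out. The ratios of the switched and plasma-like shares stayed within the intervals given above, but some intervals moved across 0. The plasma-like ratio of papain to DPBS for KO was 2.32 (0.91 to 4.06) with the transcript gate and 2.11 (0.25 to 4.57) with the member-rich cells. The switched ratio for WT was 1.32 (-0.15 to 2.98) with 10 UMIs as the minimum, 1.17 (-0.04 to 2.50) after thinning with 1 UMI, and 2.04 (-0.35 to 5.34) without cluster 14. The log2 ratios of Igkc in T-like cells moved: papain to DPBS was 1.63 in WT and 2.71 in KO with no doublets removed, 0.69 in WT with no mitochondrial limit, 1.93 in KO without integration, 0.63 in WT with the transcript gate and 0.75 in WT with the top 1% of cells left out. KO to WT was -0.82 in DPBS with no mitochondrial limit and 0.35 in papain without integration. With 1 UMI as the minimum, the members past 2-fold numbered 4 of 9 for papain to DPBS in WT, 4 of 9 for KO to WT in DPBS and 3 of 9 for KO to WT in papain, by the added Ighg1 and Ighg2c. At that minimum 22.7% of 16131, 21.3% of 15578 and 20% of 16217 genes passed in the same comparisons. Leaving out the cell with the most UMIs in each library turned the Igha ratio of KO to WT in papain to -0.014, and gave -1.21 (DPBS) and -1.35 (papain) for Ighg3 KO to WT, 3.56 for Ighg2b papain to DPBS in KO, -4.08 for Ighg2b KO to WT in DPBS, and 0.40 (WT) and 3.26 (KO) for Igha papain to DPBS. The cause of the other shifts was not tested. The thinned switched shares, the switched ratios without cluster 14, the counts with member-rich cells and the other clusterings of cluster 14 were chosen after seeing the data. With 3 to 24 plasma-like cells and 2 to 21 switched cells per library, cell numbers limit every comparison of isotypes.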
